A study of Mus musculus with 7 samples.

Results

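Mature myelinating oligodendrocytes, the cells that hold compact myelin around axons, were taken from single-cell RNA counts of 2 cortical areas of the mouse. A cell was a member if its counts of unique molecular identifiers (UMIs, each standing for 1 captured RNA molecule) met a marker rule. At least 3 of Mog, Opalin, Mal, Ermn and Mag had to reach 1 UMI, with at least 2 of Mog, Opalin and Mal at 2 or more. Members further had at most 1 UMI of the excitatory neuron gene Slc17a7 and none of the precursor gene Pdgfra. None of the microglial C1qa, the endothelial Cldn5 and the astrocytic Gja1 reached 2 UMIs. Of 32985 cells, 1889 were members. The members were chosen by these UMI counts, so the levels of the rule genes and every contrast between members and other cells are descriptions without a test.

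The tissue was ventromedial prefrontal cortex (PFC) or motor cortex (MC) of B6129SF1/J mice aged 30 postnatal days, housed with 12 h light and 12 h dark per cycle. All mice carried Opn4-Cre/+, a Cre recombinase under the control of the melanopsin gene. Control mice (CTRL; Opn4-Cre/+; Brn3b-+/+) are intact, while DTA mice (Opn4-Cre/+; Brn3b-zDTA/+) carry a diphtheria toxin A allele at Brn3b. The allele serves to ablate intrinsically photosensitive retinal ganglion cells (ipRGCs), light-sensing neurons of the retina. Cre is driven by the melanopsin gene and the toxin allele sits at Brn3b, so ablation is limited to cells that have used both genes. The genotype thus does not imply loss of all ipRGCs. There were 2 PFC CTRL, 3 PFC DTA, 1 MC CTRL and 1 MC DTA libraries. The design asks whether this ablation of ipRGCs goes with a change in the cells of the PFC, and the MC serves as a second area.

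Oligodendrocytes arise from dividing precursors, pass through a newly formed stage that has left the cell cycle, and then wrap axons with a membrane rich in lipid and in a few abundant proteins. In the cortex myelination goes on through the juvenile period. Mog, Mag and Opalin encode proteins of the outer and inner myelin surfaces and of the paranodal loops, Mal a lipid raft protein of the myelin membrane, and Ermn a cytoskeletal protein of the sheath. SOX10, a factor of the whole lineage, and MYRF, a factor of myelinating cells, are known to drive myelin genes.

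The sequences upstream of 3 of the genes that chose the members show what such a start region looks like. The 250 bases before the annotated start were read from RefSeq on build GRCm38.p6, 5′ to 3′ on the gene's strand, which is the minus strand in each case, and all 5 rule genes were found in that table. Capitals mark matches to a SOX core (ACAAAG or ACAATG) or to a MYRF motif (CTGGCAC or CTGGTAC), searched on both strands; the motifs share no bases in these windows.
Mog, chr17:37023399-37023648: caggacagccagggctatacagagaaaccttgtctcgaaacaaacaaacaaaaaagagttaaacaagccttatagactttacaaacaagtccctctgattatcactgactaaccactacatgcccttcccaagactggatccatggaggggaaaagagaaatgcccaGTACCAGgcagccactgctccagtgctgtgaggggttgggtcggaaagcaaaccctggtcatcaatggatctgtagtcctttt
Opalin, chr19:41077114-41077363: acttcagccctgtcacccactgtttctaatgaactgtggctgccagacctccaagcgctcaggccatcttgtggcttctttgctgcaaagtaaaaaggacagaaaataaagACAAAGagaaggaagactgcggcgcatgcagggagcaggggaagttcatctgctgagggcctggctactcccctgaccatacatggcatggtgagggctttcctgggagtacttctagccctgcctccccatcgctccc
Mag, chr7:30914864-30915113: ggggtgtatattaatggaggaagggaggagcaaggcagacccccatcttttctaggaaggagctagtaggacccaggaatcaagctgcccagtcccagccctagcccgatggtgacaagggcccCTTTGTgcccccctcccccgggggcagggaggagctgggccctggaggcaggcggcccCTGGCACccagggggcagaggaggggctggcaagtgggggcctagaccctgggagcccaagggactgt
The MYRF match began 83 bases before the start in Mog and 68 bases before it in Mag. A SOX core stood 139 bases before the start in Opalin, 126 in Mag and 234 in Ermn, whose window is not printed. Mal had no match of either motif in its window. Over 32851 windows of the same length, 25.2% held a SOX core and 5.93% a MYRF match. For Mag, 3 starts are annotated, and the first is shown. The window of the second holds the same matches 67 and 9 bases before its start, and that of the third holds no match of either motif.

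Members numbered 116 and 460 in the PFC CTRL libraries and 187, 105 and 293 in the PFC DTA libraries. The MC gave 568 in CTRL and 160 in DTA. Median UMIs per member ran from 2419 in PFC DTA replicate 1 to 8476 in PFC DTA replicate 3, and member UMIs per library from 480025 to 2786601. Both the shallowest and the deepest members were in PFC DTA libraries. Of the members, 1644 had all 5 markers and 23 had exactly 3. Just inside the rule, 212 members had 2 of Mog, Opalin and Mal at 2 UMIs or more, and just outside it 42 cells had 1. Scrublet called 0 to 14 members per library doublets. Members were kept whatever the call, and a fit without called cells is among the alternatives. Of 32367 distinct barcodes, 602 were seen in at least 2 libraries, and 3 of them were members in at least 2 libraries.

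RNA of neurons was present in the members and differed between libraries. The summed level of 11 excitatory neuron markers was 214 and 1789 CPM (counts scaled to the library's total of member UMIs) in PFC CTRL and 669, 437 and 541 CPM in PFC DTA. In the MC it was 1364 CPM in the CTRL and 308 CPM in the DTA library. PFC CTRL replicate 2 and MC CTRL stood above the rest. The same 2 libraries led for 10 inhibitory neuron markers, at 430 and 297 CPM against 38.7 to 67.1 CPM in the other libraries. Blood cell markers (12 genes) summed to 103 to 379 CPM, astrocyte markers (10 genes) to 60.6 to 217 CPM, microglial markers (12 genes) to 31.2 to 65.4 CPM and endothelial and mural markers (12 genes) to 8.62 to 51.3 CPM. The rest of the cells held 14321 to 17145 CPM of the excitatory markers. Neuronal RNA is given again below beside some of the genotype values, and its part in them was not tested.

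Mature oligodendrocytes made up between 2.71% and 9.12% of a library's cells. In the PFC their share was 5.99% and 4.66% in CTRL, and 7.13%, 2.71% and 4.83% in DTA. The exact (Clopper-Pearson) 95% intervals, which cover counting error only, were 2.22% to 3.27% in the lowest of these and 6.17% to 8.18% in the highest, both DTA. DTA libraries thus lay on both sides of the CTRL libraries. The means were 5.32% ± 0.944 (SD, n = 2) and 4.89% ± 2.21 (SD, n = 3), and the exact two-sided permutation test gave p = 0.9, where 0.1 is the smallest p this design allows. The difference of -0.435 percentage points turned to 1.30 when each cell was thinned to 1000 UMIs before the rule was applied (p = 0.7, same exact test). Cells under 1000 UMIs were left out of that setting, so the total changed too. PFC DTA replicate 3 then had 3561 cells rather than 6072, and 256 members rather than 293. PFC CTRL replicate 2 had 8141 cells rather than 9879, and 380 members rather than 460. The part of the lost cells in the turn was not tested.

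**Figure D1:**
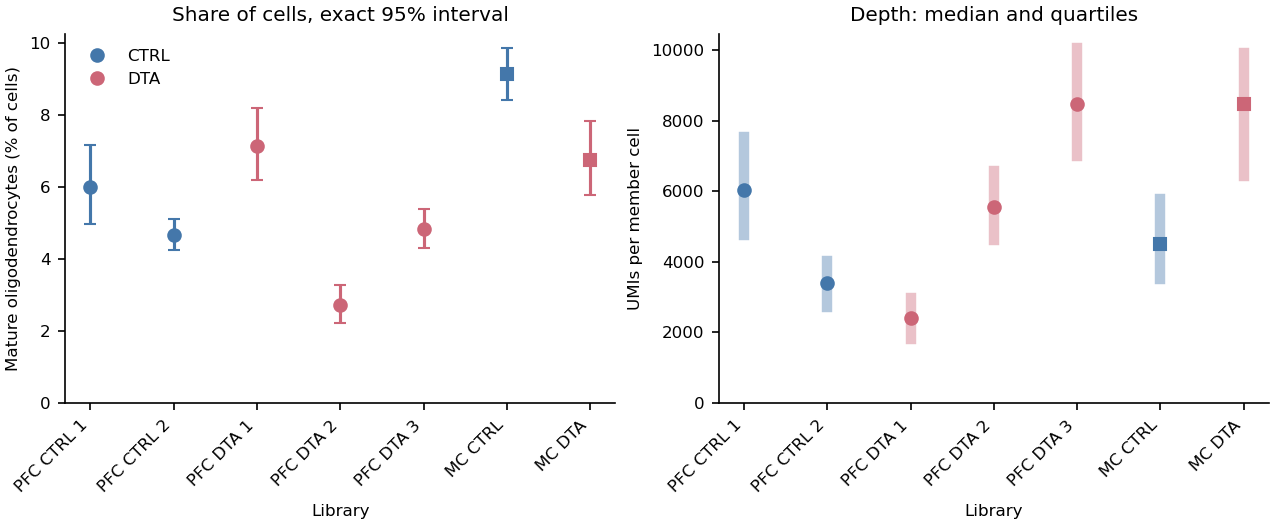
Left, share of cells that met the mature oligodendrocyte rule in each of 7 libraries, in percent, with exact 95% intervals; right, median (points) and quartiles (bars) of UMIs per member cell. The 3 PFC DTA libraries span 2.71% to 7.13% and enclose both PFC CTRL libraries, and median depth runs from 2419 to 8476 UMIs, both in PFC DTA.

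In the MC the share was 9.12% in CTRL and 6.74% in DTA. The 2 MC libraries averaged 7.93% ± 1.68 (SD, n = 2) against 5.06% ± 1.65 (SD, n = 5) in the PFC, an excess of 2.87 percentage points that was not separated from the spread between libraries (exact permutation p = 0.190, smallest possible 0.0476). PFC DTA replicate 1 lay above MC DTA.

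Within the lineage, members were set against 469 newly formed oligodendrocytes and 700 precursors found by rules of their own. Newly formed cells needed genes such as Enpp6, Bmp4 and Gpr17, and precursors needed Pdgfra with Cspg4, C1ql1, Cacng4 or Lhfpl3. Newly formed cells also had to have fewer than 2 of Mog, Opalin and Mal at 2 UMIs or more. Mature cells made up 48.1% and 63.3% of the 3 classes in PFC CTRL, and 65.6%, 33.2% and 64.3% in PFC DTA. In the MC they made up 74.2% in CTRL and 59.7% in DTA. PFC DTA replicate 2 was low and the other PFC DTA libraries were high. The PFC means of 55.7% ± 10.7 (SD, n = 2) and 54.4% ± 18.3 (SD, n = 3) gave an exact permutation p of 1.0.

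Myelin transcripts were among the abundant RNAs of the members. The nuclear RNA Malat1 had the highest level, 76350 ± 8814 CPM (SD, n = 7 libraries). A UMI is counted once per captured 3′ end, so these levels are not divided by gene length. Other abundant genes were the iron store Fth1 (16441 CPM), the prostaglandin synthase Ptgds (12381 CPM), the myelin proteins Mbp (10714 CPM), Cnp (10158 CPM) and Cldn11 (9935 CPM), and the mitochondrial mt-Atp6 (10368 CPM). The 15 abundant genes described, which further hold mt-Co3, Tmsb4x, Mobp, Mal, Cd81, Aplp1, Cryab and Trf, took 17.5% to 19.7% of member UMIs. Of these, Ptgds varied most between libraries, with 8856 CPM in PFC CTRL replicate 1 as its lowest and 18849 CPM in PFC CTRL replicate 2 as its highest level.

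A list of 23 genes of compact myelin and the myelin membrane, none of them in the rule, took 6.47% and 6.17% of member UMIs in PFC CTRL. They took 6.33%, 5.29% and 5.997% in PFC DTA, and in the MC 5.86% in CTRL and 5.88% in DTA. The groups overlapped, with means of 6.32% ± 0.212 (SD, n = 2) in PFC CTRL and 5.87% ± 0.530 (SD, n = 3) in PFC DTA (exact permutation p = 0.4).

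**Figure D2:**
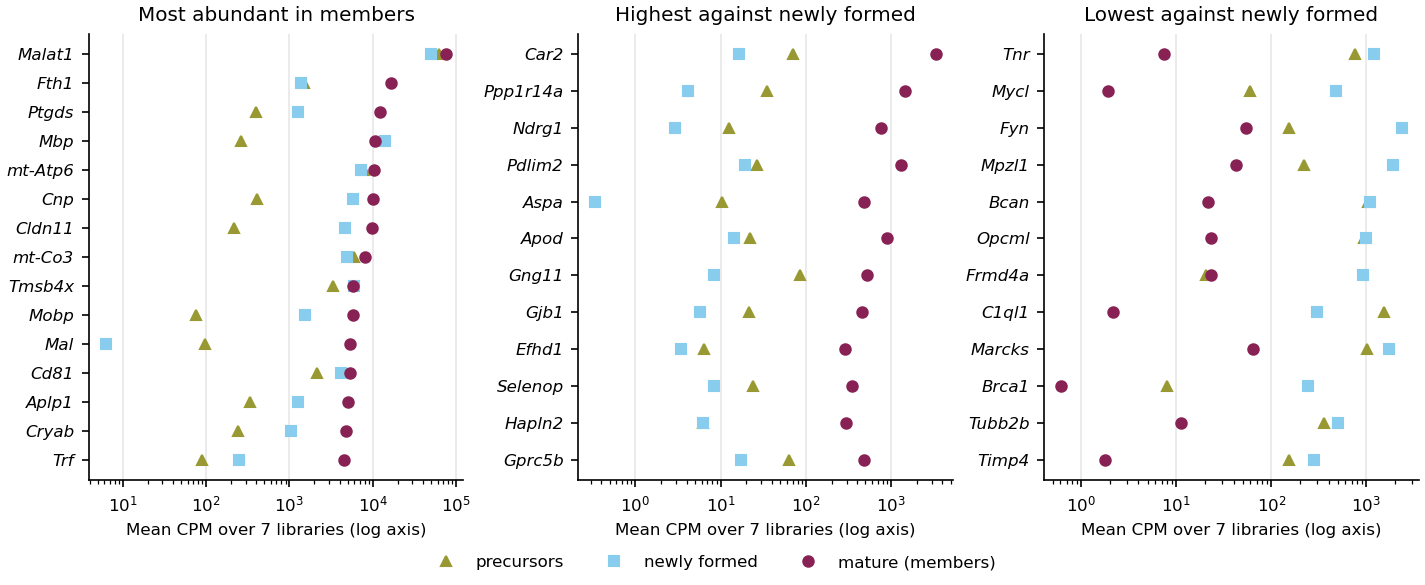
Mean CPM over 7 libraries (log axis) in members, in newly formed oligodendrocytes and in precursors, for 15 abundant genes of members and the 12 genes highest and lowest in members against newly formed cells, leaving out the genes of both classes' rules in these last panels. Mbp is at 10714 CPM in members and 14173 CPM in newly formed cells, whereas Car2 is at 3347 CPM in members and 16.5 CPM in newly formed cells.

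Against newly formed oligodendrocytes, 12 genes with a large excess in members were chosen from genes outside the rules for members and newly formed cells. The rule gene Mal stood at 5320 CPM against 6.26 CPM, a median log2 ratio of 8.45. The rules of both classes used Mal in opposite directions, so this gap was set in part by the choice of cells. Car2, carbonic anhydrase 2, stood at 3347 CPM in members and 16.5 CPM in newly formed cells, a median log2 ratio of 7.13 over libraries (with 10 CPM added to each level), and its ratio lay between 5.75 and 8.08 in every library. Mbp went the other way, at 10714 CPM in members and 14173 CPM in newly formed cells (median log2 ratio -0.43, below 0 in all 7 libraries). Both classes held Mbp RNA in bulk, and only traces of Car2 RNA were found in the newly formed class.

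Other genes of this kind had defined roles in mature cells. Aspa, which encodes the aspartoacylase that frees acetate for lipid synthesis, averaged 486 CPM in members and 0.338 CPM in newly formed cells. Gjb1, connexin 32 of the gap junctions of myelin, averaged 456 CPM against 5.72 CPM. Hapln2, a link protein of the perinodal matrix, averaged 298 CPM against 6.28 CPM. Ndrg1 stood at 760 CPM against 2.89 CPM, the phosphatase inhibitor gene Ppp1r14a at 1461 CPM against 4.11 CPM, and Pdlim2, Apod, Gng11, Efhd1, Selenop and Gprc5b completed the 12 with median log2 ratios from 4.33 to 5.55. Of the 12, Selenop had the highest level in all other cells, 242 CPM.

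The genes lowest in members against newly formed cells belong to the earlier stage. Tnr, the matrix glycoprotein tenascin-R, averaged 7.47 CPM in members and 1191 CPM in newly formed cells (median log2 ratio -5.88). Fyn, a kinase of early process outgrowth, averaged 53.7 CPM against 2352 CPM. The matrix gene Bcan averaged 21.4 CPM against 1091 CPM and the cytoskeletal Marcks 64.5 CPM against 1744 CPM. Mycl, a transcription factor gene, averaged 1.92 CPM against 478 CPM. Frmd4a was low in precursors too, at 20.6 CPM against 931 CPM in newly formed cells, as was Brca1, at 8.07 CPM against 242 CPM. C1ql1, which helped to choose the precursors, Mpzl1, Opcml, Brca1, Tubb2b and Timp4 made up the rest, with median log2 ratios from -5.16 to -4.41.

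Functional lists showed which parts of the program differed between the stages. Of 9345 genes with a level, 11.2% were higher in members in all 7 libraries and 23.4% lower, with a median log2 ratio of -0.20. In the myelin membrane list 18 of 23 genes were higher in all 7 libraries, with a median of 1.63. The axon support and transport list had 12 of 16 higher, with a median of 1.41, among them the monocarboxylate transporter Slc16a1 at 59.1 CPM against 7.04 CPM. The list of myelin lipid synthesis, which also holds genes of other roles such as the matrix gene Hapln2, had 12 of 20 higher, such as the ceramide synthase Cers2 at 976 CPM against 233 CPM and Fa2h, which hydroxylates myelin fatty acids, at 664 CPM against 278 CPM. Sterol synthesis did not share this pattern, with 3 of 20 higher and 6 lower.

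Paranode, node and axon contact genes split evenly, with 7 of 17 higher and 7 lower. Cntn2, a cell adhesion protein of the juxtaparanode, averaged 200 CPM in members and 6.02 CPM in newly formed cells, while Nfasc, which anchors the paranode, averaged 554 CPM against 1743 CPM. All 17 measured genes of the newly formed list were lower in all 7 libraries, and genes of that list helped to choose the newly formed class. Members still held 91.3 CPM of Enpp6 and 153 CPM of Bcas1.

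Lineage transcription factors were mostly lower in members: 11 of 19 in all 7 libraries, and 3 higher. Sox10, required through the whole lineage, averaged 269 CPM in members, 353 CPM in newly formed cells and 262 CPM in precursors. Myrf, which turns on the myelin program, averaged 181 CPM and 211 CPM in the 2 postmitotic classes and 22.1 CPM in precursors. Tcf7l2, a Wnt pathway effector of newly formed cells, averaged 14.5 CPM in members against 446 CPM in newly formed cells. Sox6, which holds precursors back from differentiation, averaged 1.55 CPM against 199 CPM. Of the 19 factors, Nkx6-2 had the largest excess in members, at 890 CPM against 131 CPM in newly formed cells and 13.5 CPM in precursors. Zfp536 followed at 158 CPM against 55.2 CPM.

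Receptors and growth signals had no common direction, with 7 of 19 higher in all 7 libraries, 4 lower and a median of -0.06. Gpr37, which encodes an orphan receptor of myelinating cells, averaged 753 CPM in members and 110 CPM in newly formed cells. The lysophosphatidic acid receptor gene Lpar1 averaged 552 CPM against 158 CPM, and the sphingosine 1-phosphate receptor gene S1pr5 averaged 203 CPM against 60.3 CPM. Iron handling genes had 3 of 10 higher in all 7 libraries and 2 lower. Trf, the iron carrier transferrin, averaged 4491 CPM against 252 CPM, and Fth1 16441 CPM against 1378 CPM. Tfrc, the transferrin receptor, averaged 24.6 CPM, less than the 66.1 CPM of Slc17a7-positive cells without the 5 markers.

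Among the genes described, the variance over the mean across members was largest for Malat1 and Ptgds. For this comparison each member was thinned to 1500 UMIs, which left out 0 to 22 members per library. The variance over the mean (the Fano factor, 1 for pure counting noise) had a median over libraries of 18.9 for Malat1 and 16.9 for Ptgds. Meg3 had 6.35 but is a neuronal RNA, and its factor ran from 0.868 to 12.2 between libraries. Fth1, Actb, Fos, Trf, Apoe, Cd81, Cldn11, Glul and Mbp completed the 12 genes described, with medians from 5.19 to 2.88. At the same relative spread the factor rises with a gene's level. Abundant genes are therefore ranked high, and the order is not one of relative spread.

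Pairs of genes varied together across members in a way that recurred in all 7 libraries. Among 30 genes (these 12 and the state genes with a thinned mean of at least 0.1 UMIs) 64 of 435 pairs had a positive Pearson r in all 7 libraries and 94 a negative one. Fth1 was opposed to the tetraspanin gene Cd81, with a median r of -0.41, and to Tmem141, with a median r of -0.38. These values are across cells within a library, and cells of 1 library are not replicates. At a fixed total, abundant genes also compete for the same UMIs.

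Different sets of genes stood at the ends of this pattern. Cd81 went with the tight junction gene Cldn11 (median r 0.44, range 0.38 to 0.57), and with Tmem141 (0.32). At the other end, Glul, which makes glutamine, went with Car2 (0.39, range 0.26 to 0.43). Trf went with Glul (0.37) and with Apod (0.35), and Hapln2 went with Apod (0.31). The r of Trf with Apod ran from 0.04 in PFC DTA replicate 2 to 0.61 in PFC CTRL replicate 1. Opalin, one of the rule genes, was opposed to Hapln2 (-0.25) and to Fth1 (-0.30). Ptgds went with Apoe (0.37), and the immediate early genes Fos and Dusp1 formed a pair of their own (0.31).

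**Figure D3:**
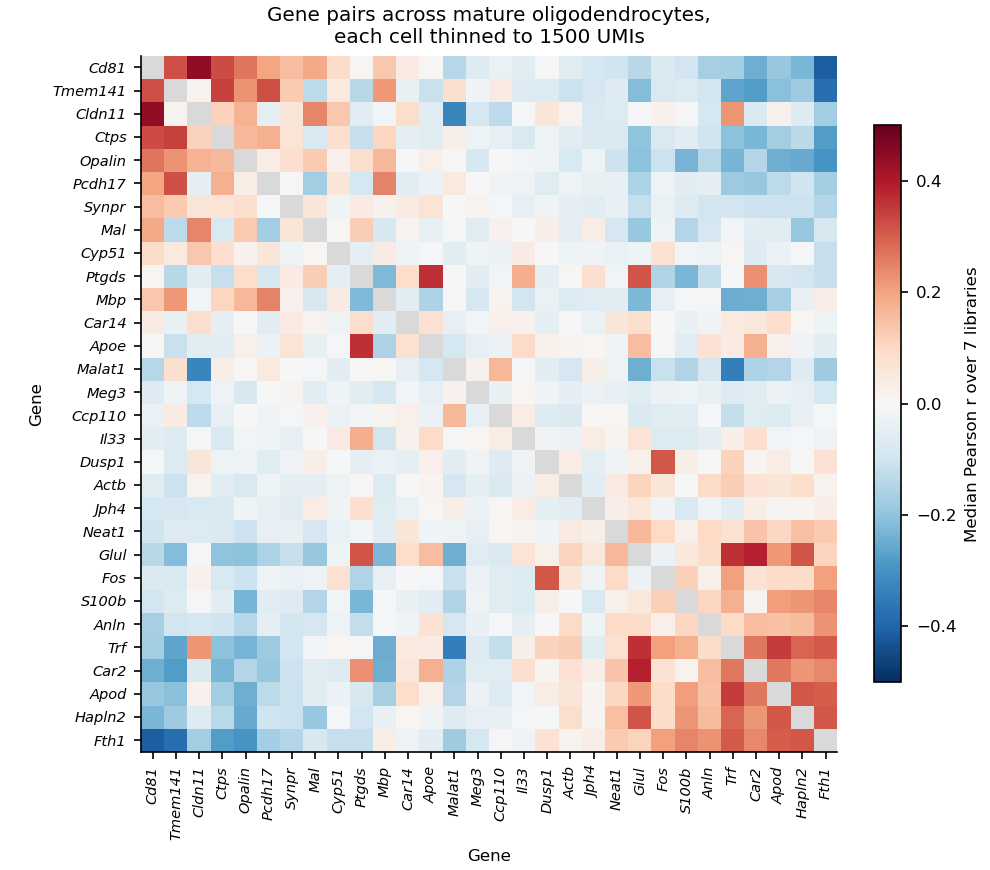
Median Pearson r over 7 libraries for pairs of 30 genes across member cells thinned to 1500 UMIs, with genes ordered by their r to Fth1 minus their r to Cd81, so that the corners are set by the order itself. Red pairs such as Cd81 with Cldn11 (0.44) and Glul with Car2 (0.39) sit at opposite ends, and the blue cells between the ends include Fth1 with Cd81 (-0.41).

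Genes known to separate states of mature oligodendrocytes were found in very different shares of members. After thinning to 1500 UMIs, Car2 had a UMI in 86.1% to 98.1% of members, Apod in 52.2% to 76.9%, Car14 in 27.3% to 39.1% and Hapln2 in 23.6% to 39.7%. Without thinning the median shares were 98.3%, 87.9%, 77.6% and 54.4%. As a background for free RNA, cells with at least 2 UMIs of Slc17a7 and none of the 5 markers had these genes in at most 3.1%, 0.891%, 0.206% and 0.352%. Their unthinned median depth was 4554 to 15447 UMIs per library.

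Klk6, a secreted protease, marked few cells. It was found in 1.74% and 1.11% of members in PFC CTRL, and 0.606%, 2.86% and 5.32% in PFC DTA. In the MC it was found in 3.91% in CTRL and 7.5% in DTA, and the Slc17a7-positive cells had it in at most 0.0373%. The range within PFC DTA spanned that of PFC CTRL. Il33, which encodes an alarmin cytokine, was found in 4.35% to 14.0% of members against at most 0.703%. Hopx stood at or below its background, and Grm3, Jph4, Pcdh17, Egr2, Synpr and Gad2 were at or below the highest background share. Slc17a7-positive cells may express such genes themselves, with median shares of 20.8% for Jph4, 31.9% for Pcdh17 and 11.1% for Synpr. For these genes the share does not measure free RNA, and whether their RNA in members is free was not tested.

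Between the areas, 3 genes differed in mature oligodendrocytes, and all of them were higher in the MC. The edgeR quasi-likelihood test with genotype as a term covered 9072 genes in 7 libraries, at a Benjamini-Hochberg adjusted p under 0.05, and 0.0331% of genes passed. With the 3 included, an unadjusted p under 0.05 was reached by 308 genes (3.40%), 164 of them higher in the MC (1.81%) and 144 lower (1.59%). For 628 genes (6.92%) the areas did not overlap. Since the labels do not say whether a library is 1 animal, p-values cover only the spread between these libraries, which may be technical.

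Slco3a1, which encodes an organic anion transporter, stood at 41.3 and 48.3 CPM in PFC CTRL, at 62.5, 50.9 and 63.9 CPM in PFC DTA, and in the MC at 114 CPM in CTRL and 123 CPM in DTA. Both MC libraries lay far above all PFC libraries, with a log2 fold change of 1.23 (SE 0.16, edgeR adjusted p = 0.00906). It was not higher in the other cells of the MC, which averaged 21.7 CPM against 25.8 CPM in the PFC. Newly formed cells had 5.50 CPM, so members were above the earlier stage as well.

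Pcolce2, an enhancer of collagen processing, stood at 23.2 and 14.1 CPM in PFC CTRL, at 20.8, 24.6 and 33.1 CPM in PFC DTA, and at 52.4 and 65.3 CPM in MC CTRL and MC DTA. The areas did not overlap, and the log2 fold change was 1.42 (SE 0.23, edgeR adjusted p = 0.0391). Apln, the peptide ligand apelin, passed too, and it was named after its value was seen because its mean of 17.8 CPM lies below the 20 CPM needed for naming. It stood at 7.89 to 17.1 CPM in the PFC and at 39.1 and 30.2 CPM in the MC, with a log2 fold change of 1.64 (SE 0.26, edgeR adjusted p = 0.0391).

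These 3 calls did not survive all alternatives. None of them passed with median depth as a covariate, with equal numbers of members, or without PFC DTA replicate 1, PFC DTA replicate 2 or MC CTRL. In each of those cases the count of called genes was 0. With DESeq2, and with a fit that is not robust, 2 genes passed, 1 of them among the 3, and without PFC CTRL replicate 2 there were 3, of which 2 were among the 3. Without MC DTA 2 other genes passed and none of the 3. Without PFC CTRL replicate 1 there were 20 called genes (6 higher in the MC, 14 lower), and without PFC DTA replicate 3 there were 5, of which 2 were among the 3.

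Hcn2 showed the widest gap between areas of the genes named here and did not pass. It encodes a hyperpolarisation-activated cation channel. Hcn2 stood at 24.5 and 13.6 CPM in PFC CTRL, at 45.8, 32.8 and 68.7 CPM in PFC DTA, and at 154 and 197 CPM in the MC. The areas did not overlap, yet with a log2 fold change of 2.47 (SE 0.33) the edgeR adjusted p was 0.144. It passed with DESeq2 (adjusted p = 3.3e-08), and over the edgeR alternatives the adjusted p ran from 1.46e-31 without a filter on low counts to 0.885 without PFC DTA replicate 1 and 1.0 with an equal number of member cells. Spock1, which encodes the proteoglycan testican-1, had a log2 fold change of 0.93 (SE 0.16, edgeR adjusted p = 0.0591), with 43.9 to 91.6 CPM in the PFC and 96.2 and 142 CPM in the MC. The other cells held more Spock1 than members, at 198 CPM in the PFC and 297 CPM in the MC. Both genes were named for the genotype comparison of the PFC.

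**Figure D4:**
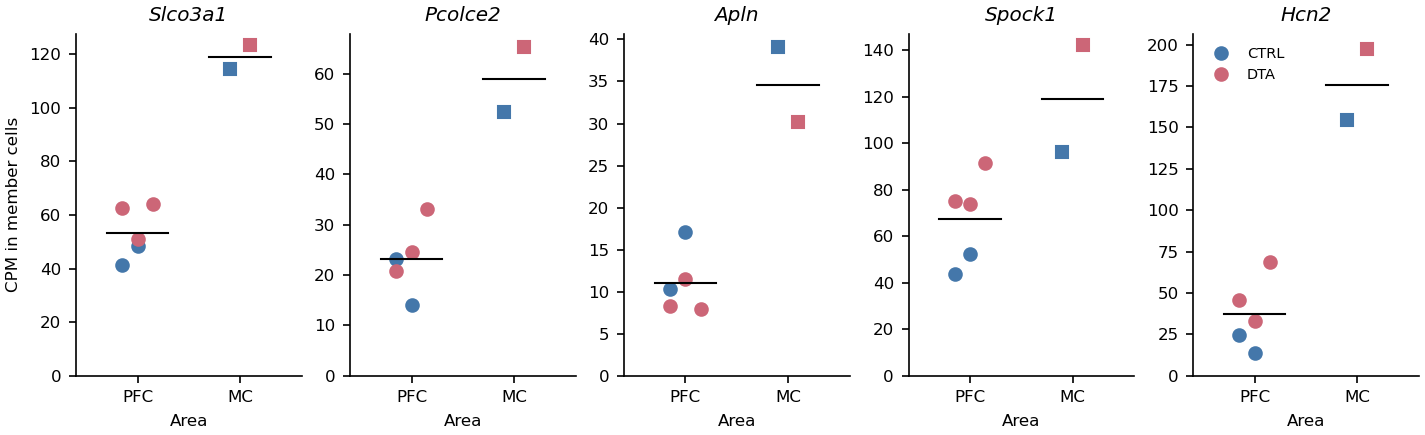
CPM in member cells by area for 5 genes, 1 point per library (circles PFC, squares MC; blue CTRL, red DTA), with bars at the mean of each area. In all 5 panels both MC libraries lie above all PFC libraries, and Slco3a1, Pcolce2 and Apln passed the test across all genes.

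Gene lists moved little between the areas, and no list member passed. Of the 12 mitochondrially encoded genes tested, 12 had a higher estimate in the MC, with a median log2 fold change of 0.32. All 12 heat shock genes tested had a lower estimate, with a median of -0.22, and 4 of them did not overlap between areas, where 6.92% of all genes did not. Immediate early genes had 13 of 19 lower estimates, with a median of -0.34. The median over all 9072 genes was -0.01, with 47.9% of estimates above 0. In the myelin membrane list 16 of 23 had a higher estimate, with a median of 0.05, and Gjb1 had the smallest p, at 367 to 494 CPM in the PFC and 484 and 610 CPM in the MC.

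Other list genes with a small unadjusted p between the areas were Elovl5, Jph4, Lpar1 and Klf9, and none of them passed. Elovl5 had a log2 fold change of 0.69 (SE 0.16, edgeR adjusted p = 0.526). Its areas overlapped, with 83.3 CPM in PFC DTA replicate 1 and 77.9 CPM in MC CTRL. Jph4 had 0.80 (SE 0.21, edgeR adjusted p = 0.745), with at most 115 CPM in the PFC and 134 and 146 CPM in the MC, and it was found in fewer members than Slc17a7-positive cells. Lpar1 stood at 526 to 660 CPM in the PFC and at 420 and 459 CPM in the MC, without overlap. Klf9, a transcription factor induced by glucocorticoids, stood at 140 to 226 CPM in the PFC and at 241 and 234 CPM in the MC, also without overlap.

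Between the genotypes of the PFC, no gene passed the test in mature oligodendrocytes. The edgeR quasi-likelihood test of 3 DTA against 2 CTRL libraries covered 7340 genes, and 0 (0.00%) passed an adjusted p of 0.05, as did 0 by DESeq2. An unadjusted p under 0.05 was reached by 215 genes (2.93%), 120 higher in DTA (1.63%) and 95 lower (1.29%). Genotypes did not overlap for 1175 genes (16.0%), 337 with a higher and 838 with a lower level in DTA. In counts simulated for this comparison the test recovered 46 of 100 genes with a 2-fold change and 95 of 100 with a 4-fold change. The changed genes were drawn only from genes above a minimum mean count. Apart from the changes, all simulated libraries had the same expression profile, without differences such as those in neuronal RNA. Recovery among all genes tested in the real libraries may therefore be lower.

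The absence of calls depended on the CTRL libraries. Without PFC CTRL replicate 1 there were 116 called genes (49 higher in DTA, 67 lower), and without PFC CTRL replicate 2 there were 34 (12 higher, 22 lower). In these fits the 1 remaining CTRL library is assumed to vary like the DTA libraries. Without any 1 of the DTA libraries the count stayed at 0.

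Since no gene passed, the 8 genes with the smallest p in each direction and a mean of at least 20 CPM were named, each with an edgeR adjusted p of 0.999. The 8 with higher estimates in DTA were Hcn2, Anxa5, Hba-a1, Elovl5, Xaf1, Spock1, Cald1 and Brd9. Those with lower estimates were Fcnaos, Rras, Tmem178, Rims2, Pou3f1, Prom1, Col9a3 and Onecut2. Genotypes were apart in all 16, which the choice by p favours.

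Elovl5 and Hcn2 had higher estimates in DTA. Elovl5, which elongates long-chain unsaturated fatty acids, stood at 40.0 and 49.5 CPM in PFC CTRL and at 83.3, 73.9 and 74.2 CPM in PFC DTA, with a log2 fold change of 0.82 (SE 0.23). In the MC it stood at 77.9 CPM in CTRL and 110 CPM in DTA, so the MC CTRL level lay within the range of PFC DTA. Hcn2, with its PFC values given above, had a log2 fold change of 1.61 (SE 0.38). Its value in PFC DTA replicate 3 was the highest of the 5, and its MC log2 ratio was 0.36 with an exact 95% Poisson interval of 0.13 to 0.58, which covers counting error only.

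Pou3f1, a POU domain transcription factor known from myelinating Schwann cells, stood at 141 and 126 CPM in PFC CTRL and at 91.7, 52.5 and 67.5 CPM in PFC DTA, with a log2 fold change of -0.88 (SE 0.23). In the MC it stood at 171 CPM in CTRL and 94.8 CPM in DTA. All 4 DTA libraries were below all 3 CTRL libraries. Other cells held less of it, at 24.8 CPM on average in the PFC. Prom1, the membrane protein prominin-1, stood at 76.1 and 45.4 CPM in PFC CTRL and at 35.4, 14.8 and 24.9 CPM in PFC DTA, and at 46.3 and 22.3 CPM in MC CTRL and MC DTA.

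For some named genes RNA of other cells has to be set beside the values. Rims2, which organises transmitter release at presynaptic sites, stood at 61.9 and 60.7 CPM in PFC CTRL, at 41.7, 18.1 and 23.7 CPM in PFC DTA, and at 70.7 and 12.2 CPM in MC CTRL and MC DTA. It averaged 132 CPM in the other PFC cells. The excitatory marker sum of members was 214 and 1789 CPM in PFC CTRL replicates 1 and 2, and 669, 437 and 541 CPM in PFC DTA. In the MC that sum was 1364 CPM in CTRL and 308 CPM in DTA. Its part in the Rims2 values of the PFC and of the MC was not tested. Newly formed oligodendrocytes held more Rims2 than members, at 183 CPM, and also more Prom1, at 124 CPM, and Col9a3, at 538 CPM. Tmem178, at 90.4 CPM against 57.2 CPM in members, and Cald1, at 147 CPM against 49.3 CPM, were higher there too. By median log2 ratio 7 of the 16 named genes were higher in newly formed cells, 3 of them with higher estimates in DTA and 4 with lower. The summed level of 17 newly formed genes in members was 3137 and 2613 CPM in PFC CTRL and 2883, 1841 and 2249 CPM in PFC DTA, with overlap, and its part in these values was not tested. Hba-a1, a haemoglobin gene with a near-identical copy Hba-a2, stood at 11.6 and 17.1 CPM in PFC CTRL and 64.6, 23.0 and 35.5 CPM in PFC DTA, but averaged 1068 CPM in the other PFC cells, and in the MC it was lower in DTA, at 30.2 CPM against 89.7 CPM. Fcnaos is an antisense transcript, and the sources used here do not say whether counting used the strand.

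**Figure D5:**
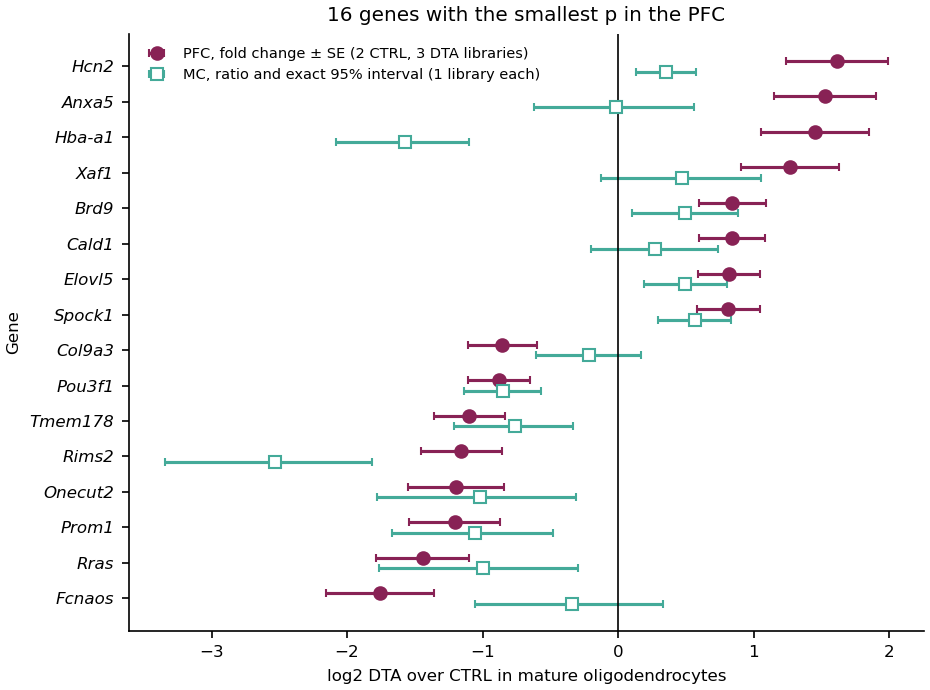
Log2 DTA over CTRL in mature oligodendrocytes for the 16 genes with the smallest p in the PFC (circles, fold change with SE, 2 CTRL and 3 DTA libraries) and in the MC (squares, ratio of CPM with exact 95% Poisson interval, 1 library per genotype). The sign is shared in 14 of the 16, the exceptions being Anxa5 and Hba-a1, and no gene passed the test across all genes.

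The MC libraries, which the PFC comparison did not use, gave the same sign for 14 of the 16 named genes. With 1 MC library per genotype there is no test. Over all genes with an unadjusted p under 0.05 in the PFC and at least 50 member UMIs in the MC, 166 of 203 (81.8%) had the same sign in the MC, against 58.0% of all 6880 such genes. For genes with a higher level in members than in the other cells the counts were 93 of 111 (83.8%) against 58.9% of 2902.

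This shared direction rested in part on single libraries. Selecting genes without PFC CTRL replicate 2 left 265 of 471 (56.3%) with the same sign in the MC, and without PFC DTA replicate 2 it was 139 of 204 (68.1%). PFC CTRL replicate 2 and MC CTRL are the 2 libraries with the most neuronal RNA in members, and the part of that RNA was not tested. A test of genotype by area over 7 libraries, added after the data were seen, called 0 of 9072 genes by edgeR, with 121 at an unadjusted p under 0.05.

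Among the lists, glucocorticoid targets had mostly lower estimates in DTA. Sgk1, a kinase induced by glucocorticoids and known to respond to stress hormones in oligodendrocytes, stood at 435 and 357 CPM in PFC CTRL and at 112, 215 and 238 CPM in PFC DTA. The genotypes did not overlap, with a log2 fold change of -0.98 (SE 0.27, edgeR adjusted p = 0.999). The MC libraries held 328 CPM of Sgk1 in CTRL and 289 CPM in DTA (log2 ratio -0.18, exact 95% Poisson interval -0.36 to -0.01). It passed without PFC CTRL replicate 2 (edgeR adjusted p = 0.0058) and without a filter on low counts (edgeR adjusted p = 0.00752), and did not pass with DESeq2 or without any other library.

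Of 12 tested glucocorticoid targets 9 had a lower estimate in the PFC and 11 in the MC, with medians of -0.27 and -0.17 on the log2 scale, where the median over all genes was 0.00 in the PFC and -0.04 in the MC. Arrdc2 stood at 61.9 and 57.2 CPM in PFC CTRL and 6.25, 34.5 and 42.2 CPM in PFC DTA. Tsc22d3, another classic target, did not share the direction in the PFC, at 193 CPM ± 6.24 (SD, n = 2) in CTRL and 196 CPM ± 29.4 (SD, n = 3) in DTA. Nr3c1, the glucocorticoid receptor itself, averaged 80.2 CPM and 93.8 CPM. None of the 12 passed the test.

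Ribosomal protein genes and mitochondrially encoded genes had mostly higher estimates in DTA. Of 77 ribosomal genes tested 73 were higher in the PFC, with a median log2 fold change of 0.23, and 68 were higher in the MC, with a median of 0.12. Their summed level was 44657 and 37090 CPM in PFC CTRL and 45916, 56217 and 38996 CPM in PFC DTA, so the groups overlapped and PFC DTA replicate 2 was highest. Of the 12 mitochondrial genes 12 were higher in the PFC, with a median of 0.15, and mt-Atp8, which had the smallest p, stood at 20.6 and 17.7 CPM in PFC CTRL and 22.9, 87.0 and 69.1 CPM in PFC DTA. In the MC 7 of the 12 were higher. Genes of a list that share a summed level in a library do not give independent counts.

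The lists of myelin itself showed no common direction. Of 23 myelin membrane genes 12 had higher estimates in PFC DTA and 11 lower, with a median of 0.04, and of 20 sterol synthesis genes 12 were higher, with a median of 0.04. Myelin lipid synthesis had 11 of 17 higher, Hapln2 again included, with a median of 0.18, and its member Gal3st1, which makes sulfatide, stood at 452 and 359 CPM in PFC CTRL and at 310, 304 and 256 CPM in PFC DTA. Core clock and output genes split 6 to 6, with a median of -0.03. Immediate early genes had 13 of 18 higher estimates, with a median of 0.27, led by Egr2 and Egr1. Egr1 stood at 133 and 170 CPM in PFC CTRL and 150, 274 and 212 CPM in PFC DTA, with overlap.

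Lineage transcription factors had 7 of 15 higher estimates and a median of -0.01. Sox10 stood at 219 and 237 CPM in PFC CTRL and at 244, 368 and 259 CPM in PFC DTA, without overlap, and at 236 and 317 CPM in MC CTRL and MC DTA (log2 fold change 0.40 in the PFC, SE 0.21, edgeR adjusted p = 0.999). Gpr17, a receptor of the newly formed stage, stood at 81.3 and 41.3 CPM in PFC CTRL and at 45.8, 31.2 and 25.3 CPM in PFC DTA. No member of any list passed the test.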

How the data were processed

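Single-cell libraries were made with 10x Genomics 3′ V2 chemistry from hand-dissected, dissociated tissue, per the labels' protocols. The deposited tables hold UMI counts, 1 value for each gene in each cell, all of them whole. The submitters' processing notes list Cell Ranger 3.0.2, Seurat and mm10 without saying what each was used for. Every cell had at least 501 genes and at most 10.0% mitochondrial UMIs, and no further filter on cells was applied. Libraries held 6180059 to 30972905 UMIs.

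Samples were grouped by area and genotype as labelled. Member UMIs were summed per library and divided by their total for CPM. After filterByExpr with a minimum of 10 counts and TMM scaling, the robust quasi-likelihood test of edgeR 4.0.16 was applied with Benjamini-Hochberg adjustment, and the SE follows from the fold change and its F statistic. DESeq2 1.42.0 served as an alternative. Single values per library were compared with exact two-sided permutation tests (scipy 1.17.1). Scrublet calls came from scanpy 1.11.5, and where under 0.5% or over 15% of a library was called, the top 0.8% per 1000 cells were taken instead, as in PFC DTA replicate 3. The tests were checked on simulated data, where 95 of 100 genes changed 4-fold were found in the PFC comparison and 97 of 100 in the area comparison. These fits also called 12 and 16 unchanged genes, beside 141 and 166 changed genes found with the right sign.

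The members and gene lists were chosen with earlier results of these data known. Named genes are, for genotype, the 8 with the smallest p each way at 20 CPM or more, since none passed. For area they are those past the threshold with at least 20 CPM. For levels they are the 15 highest and the 12 each way against newly formed cells (50 CPM or more in either class, 10 CPM added, without the genes of the rules), and for variation the 12 largest Fano factors at a thinned mean of 0.1 UMIs or more. Lists give the 2 members with the smallest p, and further list members were named after their values were seen. Predicted genes are counted and not named, and 1 gene that these rules and lists would hold is not reported here and was left out of them.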

Additional observations from a re-analysis of the deposited data

How the results depend on the processing

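The PFC genotype count of 0 remained 0 with RLE size factors, DESeq2, a test that is not robust, called doublets removed, stricter and wider rules, equal cell numbers, depth as a covariate and without each DTA library. It was 18 without a filter on low counts, and leaving out each library gave 0 to 116. The area count of 3 became 20 without the filter, 5 under the stricter rule, 6 under the wider rule and 0 with equal numbers of members or depth as a covariate, and 0 to 20 when each library was left out.

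A replicate block, which fits the replicate number as a term, gave a PFC count of 9, of which 6 were higher in DTA, and Sgk1 passed (edgeR adjusted p = 0.0134). Replicate numbers give 2 pairs and only a shared number: deviations from the group means correlated at 0.04 for number 1 and -0.05 for number 2 over 7340 genes.

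With thinned cells, where those under 1000 UMIs are left out, the PFC difference in share of cells was 1.30. It was 0.105 under the wider rule and -1.56 to 0.653 when each library was left out. The difference in lineage share was 1.01 with thinned cells and -8.91 to 9.23 when each library was left out, and that in myelin transcripts -0.671 to -0.152. Single genes that turned were Nfil3 in the PFC at 0.00482 with equal cells and, between areas, Frmd4a at 0.0909, Tnr at 0.0471 and Gpr17 at 0.0189 under the wider rule, Egr2 at 0.118 with equal cells and Rpl29 at 0.0395 without MC DTA. The cause was not tested. Across settings 1340 of 1411 values of named genes kept their direction and side of the threshold. The 2 CTRL libraries limit the PFC test, and 1 library per genotype leaves the MC without one.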
